A study of Sus scrofa with 3 samples.

Results

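The miRNAs described here are miR-103, miR-103a, miR-107, miR-33a, miR-33b, miR-378 and miR-378a, 7 names chosen because their hairpins are hosted by PANK, SREBF and PPARGC1B genes of lipid and energy metabolism. Reads were found for 12 mature arms of these names, out of 967 mature miRNAs with a read in pig liver. The arms made up 0.840% of miRNA reads in the fetal library, 0.219% in the library of young pigs and 0.336% in that of old pigs. Of the 12 arms, 5 had a mean of 10 counts per 1000000 miRNA reads (CPM) or more over the libraries, as did 323 of all mature miRNAs.

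Small RNA of 14 to 40 nt was sequenced from liver of male pigs of the Jinhua breed at embryonic day 90 (E90), postnatal day 30 (P30d) and postnatal year 7 (P7y). There was 1 library for each stage, and values given in threes are in the order E90, P30d, P7y. For each stage 3 pigs are named in the labels, without saying whether their RNA was pooled, so every comparison sets 1 library against another and no difference has a replicate check. No treatment or genetic change is given for any group. The tables held 3622993 to 9920207 reads of known miRNAs, with the fewest at P30d. A count of 0 was set to 3 reads, or 0.325, 0.828 and 0.302 CPM in the E90, P30d and P7y libraries. The exact interval of a 0 reaches 0.399, 1.02 and 0.372 CPM. All intervals are 95% and cover counting error only. Copies made by PCR are not independent of each other, which these intervals do not include. Of the markers of hepatocytes, miR-122-5p stood at 128017, 213802 and 37870 CPM in the same order. The 5 hepatocyte markers together made up 37.9%, 37.0% and 40.8% of reads, but they differed in direction. miR-101-3p had 65392, 5493 and 119966 CPM and miR-148a-3p 75920, 41822 and 95666, both lowest at P30d. miR-192-5p had 109466, 109310 and 154836 CPM, and miR-194-5p, at 25.5, 46.4 and 20.4, was highest at P30d like miR-122-5p.

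Many miRNAs are cut from introns of protein-coding genes and can be made along with the host's messenger RNA. The miR-103 and miR-107 hairpins sit in the PANK genes, which encode pantothenate kinases, the enzymes of the first step of coenzyme A synthesis, and these miRNAs are known for lowering insulin sensitivity, with caveolin-1 as a target. miR-33a and miR-33b lie in the SREBF2 and SREBF1 genes of sterol and fatty acid synthesis and repress ABCA1, the exporter of cholesterol. The main miR-378 hairpin lies in PPARGC1B, a coactivator of mitochondrial genes, and miR-378 is known as a regulator of mitochondrial and lipid metabolism. A miRNA finds its targets mainly through its seed, bases 2 to 8 from the 5′ end, so miRNAs with 1 seed largely share targets.

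The mature sequences, taken from the references that the deposited tables name, show which members can replace each other in that pairing and which differ only outside it. The seed is in capitals and T stands for U.
miR-103: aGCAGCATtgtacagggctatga
miR-107: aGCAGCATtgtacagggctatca
miR-33a-5p: gTGCATTGtagttgcattgc
miR-33b-5p: gTGCATTGctgttgcattgc
miR-378: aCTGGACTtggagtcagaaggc
miR-378a-5p: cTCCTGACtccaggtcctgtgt
Counted from 1 at the 5′ end, miR-103 and miR-107 differ by G22C alone, and miR-33a-5p and miR-33b-5p by T9C and A10T. Both differences lie outside the seed. The references of miR-103, miR-107 and miR-378 are pig entries, those of miR-33a-5p and miR-33b-5p are the dog and cow entries, and that of miR-378a-5p is the human entry.

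The hairpins on which the pig reads were placed are shown because the bases that follow the mature arm bear on the end variants described further on. The main mature arm is in capitals, and positions are those of the tables on Sscrofa10.2.
mir-103-1: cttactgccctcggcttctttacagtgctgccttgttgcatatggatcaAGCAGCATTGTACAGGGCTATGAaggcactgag
mir-107: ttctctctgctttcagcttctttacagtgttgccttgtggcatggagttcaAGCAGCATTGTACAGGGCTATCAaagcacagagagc
mir-378-1: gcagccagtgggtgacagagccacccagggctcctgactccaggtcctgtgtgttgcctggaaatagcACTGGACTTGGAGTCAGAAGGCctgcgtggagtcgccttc
mir-103-1 was placed at chr16:59912617-59912698 on the plus strand, and the other copy, mir-103-2, at chr17:36149786-36149870 on the minus strand. mir-107 was at chr14:110407095-110407181 on the minus strand. mir-378-1 was at chr2:157640333-157640440 on the plus strand. mir-33a was placed on an unplaced scaffold as a piece of 53 nt, and the reads of miR-33b were on no hairpin of the pig genome in these tables. RefSeq for the later pig assembly Sscrofa11.1 held 4 of 6 hairpin genes looked up, and all 4 were on the chromosome that the tables give. There the gene of mir-103-1 lay within PANK3, that of mir-103-2 within PANK2, that of mir-107 within PANK1 and that of mir-378-1 within PPARGC1B. Their position relative to exons was not analysed here.

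miR-103-3p, the product of both miR-103 hairpins, was the most abundant of these miRNAs in every library. It had 68175 reads in the E90 library, 3449 in P30d and 28145 in P7y, or 7375, 952 and 2837 CPM, which ranked 25, 72 and 30 among all miRNAs of those libraries. The fetal library was thus the highest and that of young pigs the lowest. On the log2 scale the CPM of the later library over the earlier one was -2.95 from E90 to P30d (interval -3.0 to -2.90), 1.58 from P30d to P7y (1.52 to 1.63) and -1.38 from E90 to P7y (-1.40 to -1.36). A call, throughout, means a ratio of 2-fold or more with an interval that excludes 0, which 68.4% of the 323 miRNAs reached from E90 to P30d, 68.4% from P30d to P7y and 62.8% from E90 to P7y. By that rule miR-103-3p was lower at P30d than at E90, higher at P7y than at P30d, and lower at P7y than at E90. The last of these depends on the scaling: it was -0.19 with TMM factors and -0.26 with median-of-ratios factors, neither of which is a call, while the other 2 calls held under both.

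From P30d to P7y miR-103-3p went against most miRNAs. The median log2 ratio over the 323 compared was -0.11 from E90 to P30d, -1.34 from P30d to P7y and -1.11 from E90 to P7y. TMM factors moved these medians by 0.16, 1.03 and 1.19, so ratios to P7y are also given relative to the median. Relative to it, miR-103-3p stood at -2.84, 2.92 and -0.26, and 92.0% of miRNAs had a lower ratio from P30d to P7y. In bulk liver, fewer cells of a type and less RNA per cell cannot be told apart. The 4 markers of red blood cells in the tables, with miR-451 under the name miR-451-5p, summed to 0.723%, 0.303% and 0.182% of reads, and those of mesenchymal cells (5 of 5) to 5.78%, 6.36% and 11.2%. The mesenchymal markers were mixed from P30d to P7y, with log2 ratios of 2.53 for miR-143-3p and 2.17 for miR-145-5p. The ratio was -1.0 for miR-199a-3p, -3.99 for miR-199a-5p and -1.48 for miR-214-3p. The erythroid sum was highest at E90, as was miR-103-3p. Of its markers, miR-451-5p, miR-486-5p and miR-144-5p were highest at E90, but miR-144-3p was highest at P30d, with 978, 1195 and 123 CPM. From P30d to P7y the log2 ratio was -0.13 for miR-451-5p, -0.14 for miR-486-5p, -3.27 for miR-144-3p and 0.29 for miR-144-5p. The median of these 4 was -0.13 in CPM, but 0.90 with TMM factors and 1.0 with median-of-ratios factors. The part of other cells in the level of miR-103-3p was not tested.

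miR-107-3p had 6841, 1512 and 1488 reads in E90, P30d and P7y as the authors divided them, or 740, 417 and 150 CPM. On these values it was lower in each later library. The log2 ratio was -0.83 from E90 to P30d (-0.91 to -0.75), which is under 2-fold, -1.48 from P30d to P7y (-1.58 to -1.37) and -2.30 from E90 to P7y (-2.38 to -2.22), and the last 2 were calls. From P30d to P7y it was -0.13 relative to the median of all miRNAs, and with TMM or median-of-ratios factors it was -0.45 or -0.34 and no longer a call.

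These values of miR-107-3p rest in part on reads that cannot be assigned. A read that ends before base 22 has the same letters in miR-103 and miR-107, and the authors divided such reads among the 3 hairpins. At E90 the representative read of miR-107, the one the table prints for the arm, was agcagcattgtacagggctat, 21 nt long with 11532 copies, which lacks base 22. At P30d and P7y it was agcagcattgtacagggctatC, 22 nt long with 697 and 535 copies, which carries the distinguishing base, here in capitals. The shape of the table, with divided reads per arm and whole reads per hairpin, allowed the reads to be sorted into 3 classes.

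Reads that mapped to the miR-107 hairpin alone numbered between 1293 and 1306 in E90, 1160 in P30d and 1190 in P7y, or 140 to 141, 320 and 120 CPM. For these reads P30d was thus the highest library, where the divided reads had put E90. The log2 ratio of these reads was 1.19 from E90 to P30d (1.07 to 1.30), -1.42 from P30d to P7y (-1.53 to -1.30) and -0.23 from E90 to P7y (-0.34 to -0.11). So the ratio from E90 to P30d turned from -0.83 to 1.19, a call in the opposite direction, and the call from E90 to P7y was lost. The call from E90 to P30d held with TMM factors, at 1.35, and with median-of-ratios factors, at 1.17. From P30d to P7y those factors gave -0.39 and -0.28, no longer calls, and from E90 to P7y they gave 0.96 and 0.89, the other direction and still under 2-fold. Reads shared with miR-103, at 1796 to 1798 CPM in E90, are not in the reads of miR-107 alone. The order of the libraries over all reads of miR-107 is therefore not settled.

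Reads that mapped to the miR-103 hairpins alone numbered 56909, 2741 and 27482, or 6157, 757 and 2770 CPM, with log2 ratios of -3.02, 1.87 and -1.15. They kept the order of the divided reads, with E90 highest and P30d lowest, except that P7y was highest with TMM factors. Reads shared by miR-103 and miR-107 stood at 1796 to 1798, 291 and 90.2 CPM. They made up 22.2% of the reads on the 3 hairpins at E90, 21.3% at P30d and 3.03% at P7y. Over the whole libraries, reads of 21 nt or less were 40.2%, 29.7% and 46.1% of the copies of all representative reads. These are printed reads of all miRNAs, so they do not measure the lengths of miR-103 or miR-107 reads. The part of read length in the share of shared reads was not tested.

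**Figure D1:**
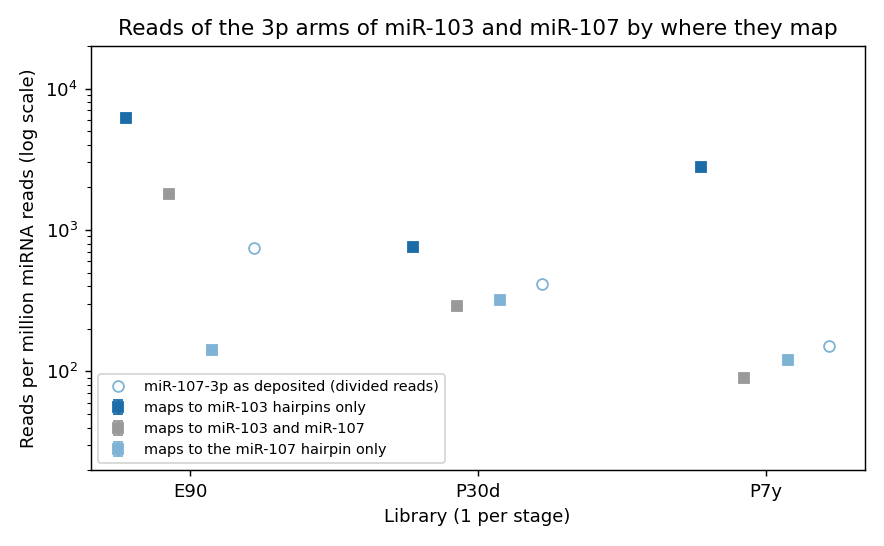
CPM (log axis) in the libraries E90, P30d and P7y for reads that map to the miR-103 hairpins only, to both miR-103 and miR-107, or to the miR-107 hairpin only (squares, with 95% counting intervals mostly within the symbols), and for miR-107-3p as deposited (open circles). The open circles step down from 740 to 150, while the reads of miR-107 alone peak at P30d with 320.

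Among the reads that could be assigned, the balance between the paralogs differed between libraries. There were 43.6 to 44.0 reads of miR-103 alone for each read of miR-107 alone at E90, 2.36 at P30d and 23.1 at P7y. With the divided reads the ratios were 9.97, 2.28 and 18.9. P30d had the most even balance by both measures, while the order of E90 and P7y changed. Shared reads numbered 16605 to 16618 at E90, more than those of miR-107 alone, so neither measure settles the balance over all reads. Summed as 1 seed family, miR-103-3p and miR-107-3p had 8115, 1369 and 2987 CPM, in the order of miR-103-3p. Markers of brain, where both are also abundant, summed to 98.3, 162 and 27.4 CPM, with miR-124-3p at 0 in all libraries. That sum, mostly miR-128-3p, was highest at P30d like the reads of miR-107 alone. The other brain marker with reads, miR-9-5p, went the other way, with 5.19, 4.69 and 14.5 CPM, lowest at P30d. The part of other cells in the reads of miR-107 alone was not tested.

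The other arms of these hairpins were scarce. The 5p arm of mir-107 had 16, 14 and 5 reads, which was 0.233%, 0.917% and 0.335% of the reads of both arms. miR-103a-5p had 30, 9 and 0 reads and miR-103-5p 1, 0 and 0. Together the 5p arms made up 0.0455% of miR-103 reads in E90, 0.260% in P30d and 0 of 28145 in P7y, which allows up to 0.0131% (exact Clopper-Pearson). Both hairpins had their largest 5p share at P30d. So did 91 of 195 hairpins with at least 50 reads in every library, for which the median share of the minor arm was 0.534%, 0.775% and 0.335%.

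The seed of miR-103 was otherwise carried only by miR-4524a-5p, with 1 read at E90. The miR-15 family, which regulates the cell cycle, has nearly the same seed shifted by 1 base, as miR-16-5p shows.
miR-16-5p: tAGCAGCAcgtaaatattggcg
miR-103: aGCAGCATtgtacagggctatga
Of the 4 most abundant of that family, miR-16-5p had 2207, 8716 and 888 CPM, miR-503-5p 2781, 72.6 and 26.2, miR-424-5p 1380, 436 and 26.4, and miR-195-5p 177, 269 and 579. None of these 4 had the order of miR-103-3p, with E90 highest and P30d lowest. By the distance of centred log2 CPM over the 3 libraries, the miRNAs nearest to miR-103-3p among 180 with a mean of at least 100 CPM were miR-320-3p at 0.53, miR-223-3p at 0.60 and miR-4286-5p at 0.60. miR-107-3p was at place 63, with 2.21. Nearest to miR-107-3p as deposited were miR-19a-3p at 0.084, miR-484-5p at 0.15 and miR-204-5p at 0.17. These distances rest on 3 libraries and share their totals, so they are descriptions.

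The miR-33 pair was far less abundant and was read mainly in young pigs. miR-33a-5p had 84, 201 and 6 reads, or 9.09, 55.5 and 0.605 CPM. miR-33b-5p had 1, 128 and 7 reads, or 0.108, 35.3 and 0.706 CPM. P30d was the highest library for both, although it was the shallowest. Both passed the filter through P30d alone, so that a difference from P30d was built into their being compared.

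For miR-33a-5p the log2 ratio was 2.61 from E90 to P30d (2.24 to 3.0), -6.52 from P30d to P7y (-7.98 to -5.37) and -3.91 from E90 to P7y (-5.40 to -2.73), all 3 of them calls. For miR-33b-5p it was 8.35 (5.85 to 13.67), -5.65 (-6.99 to -4.56) and 2.71 (-0.26 to 8.20). The last, from 1 read to 7, was not a call, and became one with TMM factors at 3.90, median-of-ratios factors at 3.82 or a total without the 5 most abundant miRNAs at 3.03. The 2 paralogs thus differed most at E90, with 84 reads of miR-33a-5p and 1 of miR-33b-5p, while at P30d and P7y their CPM were within 2-fold of each other.

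Nearly all of the few reads of the pair at P7y differed from the references. Of 6 reads of miR-33a-5p, 5 had a mismatch, and the representative read had G3T, a change within the seed, in 5 copies. All 7 reads of miR-33b-5p had a mismatch as well. Without mismatched reads, the seed family counted 61, 289 and 1 reads, or 6.60, 79.8 and 0.101 CPM. Over all miRNAs, reads with a mismatch were 18.6%, 13.9% and 21.7% of the total.

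The 3p arms of the pair had few reads. miR-33a-3p had 14, 4 and 13 reads, and miR-33b-3p 1, 6 and 0. Those of miR-33a-3p include an entry whose representative read had 3 copies at E90 and 1 at P30d. In the scaffold piece that read lies between the arms, in the loop. It is counted with the 3p arm in the shares and arm ratios of mir-33a given here. The 5p arm held 85.7% of the reads of mir-33a in E90 (interval 77.2% to 92.0%), 98.0% in P30d (95.1% to 99.5%) and 31.6% in P7y (12.6% to 56.6%), the last on 19 reads. The 13 reads of the 3p arm at P7y all had a mismatch, and their entry is typed as the 5p arm in the table although the read is that of the 3p arm. With arms as typed, miR-33a-5p stood at -4.86 from P30d to P7y and -2.25 from E90 to P7y, both still calls. Without mismatched reads 1 read was left at P7y, of the 5p arm. In each library a representative read of miR-33a-3p differed from its primate reference by A3G. That base, with the first 12 of these reads, is in the deposited pig scaffold piece, which ends there. The only other miRNA with the seed was an entry named miR-33-5p, with 3 reads at P30d.

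**Figure D2:**
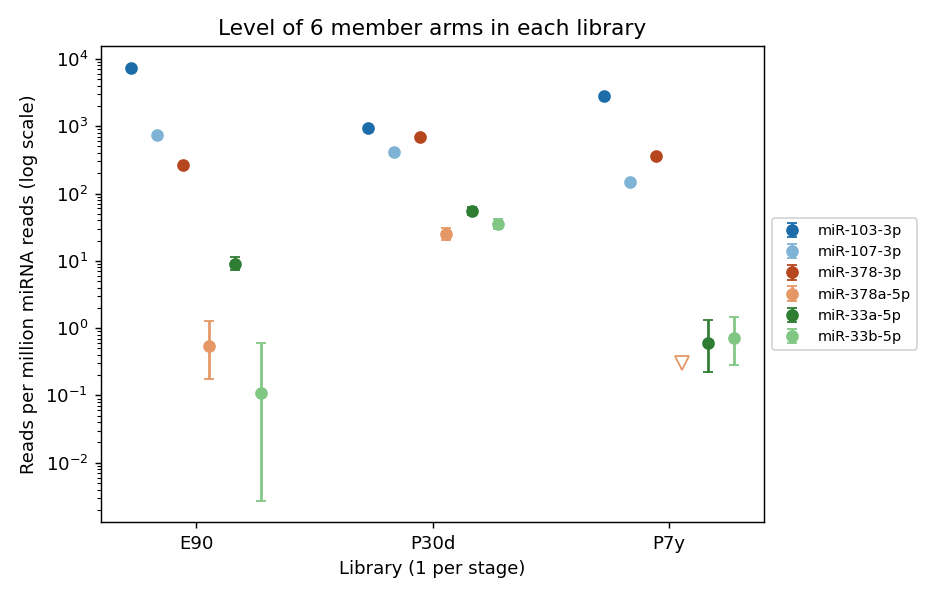
Level of 6 arms in the libraries E90, P30d and P7y, in CPM on a log axis, with 95% exact counting intervals where they exceed the symbols. The open triangle marks a count of 0, drawn at the value of 3 reads, 0.302 CPM. miR-103-3p is lowest at P30d, while both miR-33 arms, miR-378-3p and miR-378a-5p are highest there, although for miR-378-3p P7y is the higher with TMM or median-of-ratios factors.

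miR-378-3p had 2476, 2521 and 3616 reads, or 268, 696 and 365 CPM, ranking 130, 83 and 83. P30d was the highest library, with P7y between the others. The log2 ratio was 1.38 from E90 to P30d (1.30 to 1.46), a call. It was -0.93 from P30d to P7y (-1.01 to -0.86) and 0.44 from E90 to P7y (0.37 to 0.52), both under 2-fold. With TMM factors these became 0.10 and 1.64, and with median-of-ratios factors 0.20 and 1.56, so under those scalings P7y was not below P30d and was called above E90. Set against the median over all, the 3 ratios were 1.49, 0.41 and 1.56.

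A peak at P30d was common, since 137 of the 323 miRNAs (42.4%) had their highest CPM there. In CPM, markers of striated muscle and brown fat, where miR-378 is also abundant, had their highest sum at P30d too. With TMM or median-of-ratios factors miR-378-3p itself was highest at P7y. The 6 markers listed summed to 480, 2167 and 487 CPM, nearly the same at E90 and P7y. All 4 of them that were compared were called higher at P30d than at E90, as were 33.1% of all miRNAs. At P30d the largest part of the sum was miR-193b-3p, at 108, 1222 and 239 CPM. It had the order of miR-378-3p, as did miR-133a-3p at 14.7, 41.1 and 27.1 CPM. In contrast, miR-499-5p, at 155, 319 and 51.5 CPM, and miR-365-3p, at 202, 583 and 166, were lowest at P7y. The muscle miRNAs miR-1-3p and miR-206-3p had 3, 3 and 31 reads and 1, 0 and 0 reads. On these few reads miR-1-3p was highest at P7y, at 0.325, 0.828 and 3.12 CPM. What part other cells had in the level of miR-378-3p was not tested.

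The ends of the miR-378 reads differed between libraries too. Beside the read that matches the pig reference, the tables list one with 1 more base, shown in capitals.
matching read: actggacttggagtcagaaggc
longer read: actggacttggagtcagaaggcT
The mir-378-1 hairpin has C at the place of that T, as printed above, and the tables give the longer read with 1 mismatch to a cow entry. It had 178 copies at E90 beside 927 of the matching read, 520 beside 1065 at P30d, and 303 beside 1362 at P7y. Its share of both was 16.1% (14.0% to 18.4%), 32.8% (30.5% to 35.2%) and 18.2% (16.4% to 20.1%), so the share at P30d lay above both other intervals. A read longer by a T was listed for 4 arms at E90, 3 at P30d and 3 at P7y, miR-378-3p included, and both arms with such a read in all 3 libraries had the largest share at P30d. For miR-103-3p, the read longer by a G made up 0.281%, 0.106% and 0.234%, with the base after its arm being A in both hairpins. Reads with any mismatch were 45.3%, 43.1% and 44.0% of miR-378-3p, against 9.46%, 21.9% and 11.2% of miR-103-3p.

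Among the mir-103, mir-107 and mir-378 hairpins, the share of the minor arm differed most between libraries, in percentage points, for miR-378. miR-378a-5p had 5, 91 and 0 reads, or 0.541 CPM at E90, 25.1 at P30d and less than the limit of 0.302 at P7y. It was 46.4-fold higher at P30d than at E90 (log2 5.54, 4.26 to 7.19). With the 0 set to 3 reads it was 83.1-fold lower at P7y than at P30d (log2 -6.38, interval up to -6.05). With a mean of 8.55 CPM it fell just under the filter, while miR-33b-5p with 12.0 CPM was just above it. The 5p arm made up 0.202% of the reads of the hairpin at E90 (0.0655% to 0.470%), 3.48% at P30d (2.81% to 4.26%) and 0 of 3628 at P7y, which allows up to 0.102%. Both the 5p share and the read with the added base were therefore highest at P30d. All 5 reads of the arm at E90 had a mismatch, against 3 of 91 at P30d.

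**Figure D3:**
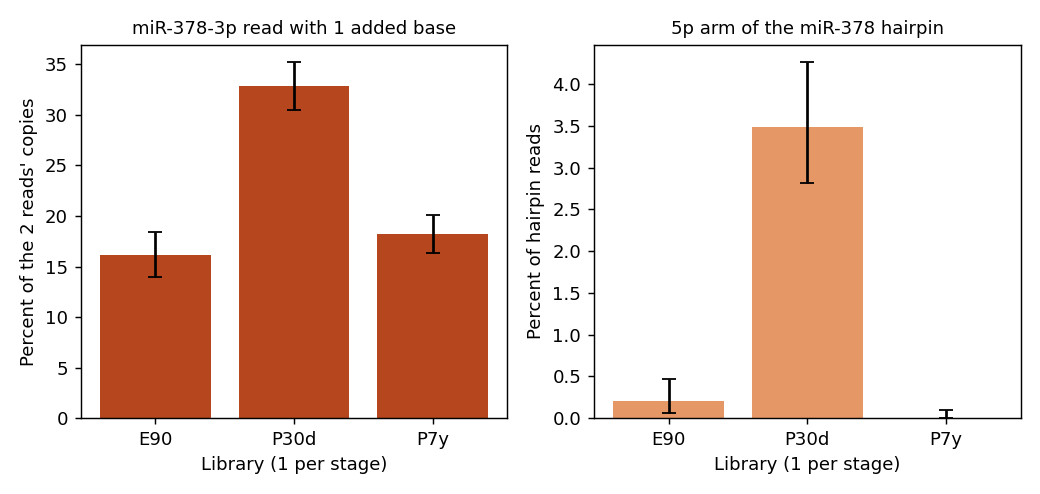
Left, the copies of the miR-378-3p read with 1 added base as a percent of the copies of it and the matching read; right, the 5p arm as a percent of all reads of the miR-378 hairpin, each in the libraries E90, P30d and P7y with 95% exact binomial intervals. Both shares are highest at P30d, at 32.8% and 3.48%.

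Other entries of the miR-378 family were minor. miR-378c-5p, miR-378d-5p and miR-378f-3p share the seed and had 29, 11 and 122 reads, 9, 3 and 16 reads, and 0, 0 and 12 reads. miR-378a-3p, a name given to a read of 17 nt with a mismatch, had 12 reads at P7y alone. In CPM these 4 were highest at P7y, unlike miR-378-3p. Nearest to miR-378-3p over the 3 libraries were miR-6243-3p at a distance of 0.034, with 89.9, 227 and 123 CPM, then miR-126-5p, an endothelial miRNA, at 0.28 and miR-199b-3p at 0.32. The other endothelial marker, miR-126-3p, went the other way. Its log2 ratio was -0.67 from E90 to P30d and 0.56 from P30d to P7y.

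Over the 5 arms compared, 3 were called higher at P30d than at E90, 1 was called lower (miR-103-3p) and 1 was neither. Of all 323 miRNAs, 33.1% were called higher and 35.3% lower. From P30d to P7y 1 was higher and 3 were lower, against 12.7% and 55.7% of all. From E90 to P7y 0 were higher and 3 lower, against 11.5% and 51.4%. With 5 arms, 2 of which passed the filter through P30d alone, nothing is read from these counts. Their median log2 ratio was 1.38, -1.48 and -1.38, beside -0.11, -1.34 and -1.11 over all. The background split depended on the scaling: the calls from P30d to P7y were 41 higher and 180 lower in CPM but 88 higher and 111 lower with TMM factors. From E90 to P7y they were 37 and 166 in CPM and 92 and 100 with TMM factors.

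**Figure D4:**
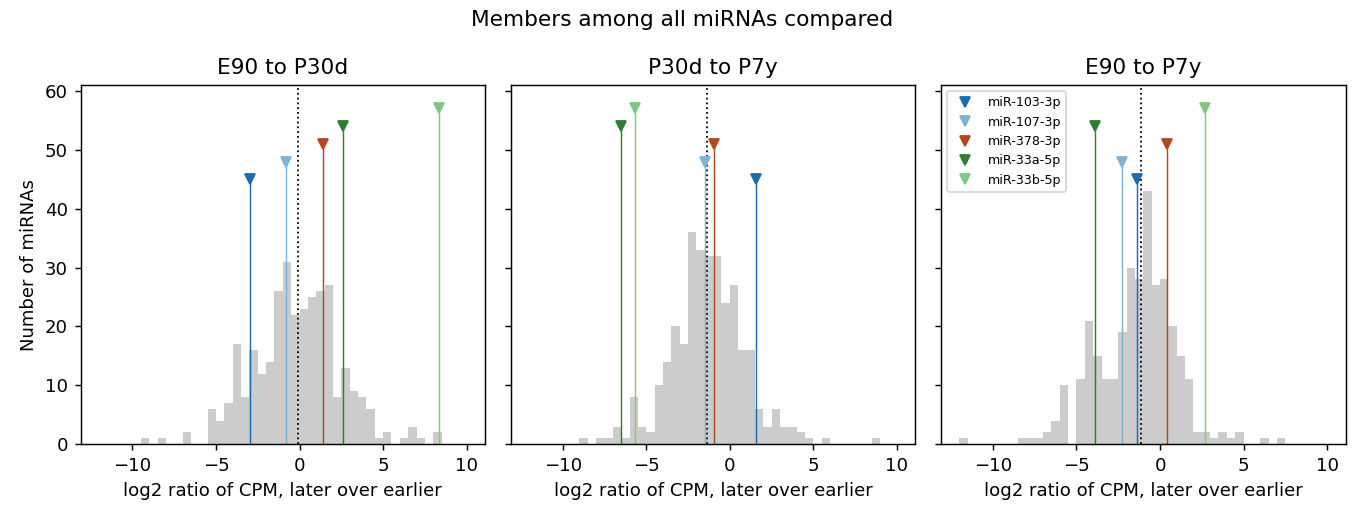
Histograms of log2 ratios (CPM of the later library over the earlier one, horizontal axis) as numbers of the 323 miRNAs (vertical axis) for the 3 pairs of libraries, with the median as a dotted line and the 5 member arms as coloured markers (marker height has no meaning). miR-103-3p lies left of most miRNAs from E90 to P30d, at -2.95, and right of most from P30d to P7y, at 1.58, whereas both miR-33 arms lie far to the right and then far to the left. Both miR-33 arms passed the filter through P30d alone, so a difference from P30d was built into their being shown.

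Other miRNAs linked to lipid or glucose metabolism of the liver were mixed in direction. Of 21 listed, 20 were compared: 6 were called higher and 7 lower from E90 to P30d, 3 higher and 13 lower from P30d to P7y, and 5 higher and 11 lower from E90 to P7y. Of all 323 miRNAs, 33.1% and 35.3%, 12.7% and 55.7%, and 11.5% and 51.4% were called higher and lower in these pairs. The medians of the list were 0.47, -1.49 and -1.80, beside -0.11, -1.34 and -1.11 over all. With TMM factors the list had 6 higher and 7 lower, 6 and 7, and 8 and 8. The most abundant was miR-122-5p, the main hepatocyte miRNA, which supports cholesterol synthesis and was called lower at P7y than in both other libraries, although the call against E90 was lost with TMM factors, at -0.57. miR-148a-3p, which targets the LDL receptor, had 75920, 41822 and 95666 CPM, and miR-143-3p 51124, 17730 and 102623. Both were lowest at P30d, as was miR-103-3p. miR-26a-5p, which is linked to insulin sensitivity, had 19843, 102238 and 25361 CPM and was highest at P30d in CPM, as were the miR-33 arms and miR-378-3p, the last of which was highest at P7y with TMM factors.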

How the data were processed

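The authors' reads were mapped to known mammalian miRNA hairpins and to the pig genome, per the file headers, with Sscrofa10.2 as the build per the submitters' processing notes. Neither the aligner nor the trimming is given in the sources used here. The deposited reads of an arm are expected counts: where a read lay on several hairpins, it was divided among them. The deposited reads per hairpin and copies of the representative read are counts.

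Expected counts were summed per mature name without species prefix, then rounded. Entries of 1 name with the same first 15 reference bases were given 1 arm, which moved 22, 28 and 36 member reads at E90, P30d and P7y. CPM were taken per 1000000 reads of known miRNAs, so predicted hairpins were left out, and 323 miRNAs, those averaging at least 10 CPM, were compared. Ratios have exact conditional binomial 95% intervals. A call needed an absolute log2 ratio of 1 and an interval off 0, and a 0 was set to 3 reads. There are no p-values, since 1 library per stage has no spread. Read classes of miR-103 and miR-107 are bounds by linear programming from divided and whole reads.

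The members and lists were chosen with earlier results of these data known. All member arms were named. Relatives by seed, the miR-15 family and the metabolism list were given as counts, with values for up to 4 of the highest mean, and the 3 nearest miRNAs by distance for miR-103-3p, miR-107-3p and miR-378-3p. The marker lists were hepatocyte, erythroid, mesenchymal, muscle and brown fat, brain, leukocyte (0.0962%, 0.345% and 0.0944% of reads) and endothelial (1.33%, 1.19% and 1.36%).

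Scaling was repeated with edgeR 4.0.16 (TMM), with DESeq2 1.42.0 (median of ratios) and with the 5 most abundant miRNAs taken out of the total. Other alternatives were other filters, pig entries only, reads without a mismatch, the representative read only, and miR-103 with miR-107 summed. Arms as typed, shared reads left out, and the read classes and metabolism list under each scaling were added after the data were seen. The work used R 4.3.3, matplotlib 3.10.9, SciPy 1.17.1, NumPy 2.4.6, pandas 2.3.3 and Python 3.11.15. The comparison was tested on simulated data. The sequence and position of 1 hairpin are not reported here.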

Additional observations from a re-analysis of the deposited data

How the results depend on the processing

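Of 150 log2 ratios of members under the alternatives, 134 kept direction and call, 5 lost the call, 8 gained one and 3 reversed. With TMM and median-of-ratios factors, miR-107-3p from P30d to P7y became -0.45 and -0.34, miR-378-3p from P30d to P7y 0.10 and 0.20, miR-103-3p from E90 to P7y -0.19 and -0.26, miR-33b-5p from E90 to P7y 3.90 and 3.82, and miR-378-3p from E90 to P7y 1.64 and 1.56. Without the 5 most abundant miRNAs in the total, miR-33b-5p from E90 to P7y was 3.03. miR-107-3p from E90 to P30d was -1.02 without mismatched reads, -2.71 by its representative read, and 1.19 with the shared reads left out, a choice made after the data were seen, where E90 to P7y was -0.23. The representative read gave -1.28 for miR-378-3p from P30d to P7y. With no filter, 7, 8 and 6 of 12 member arms were called over the pairs in the order of the report, and 376, 376 and 428 of 967 miRNAs. At a mean of 100 CPM, 2 of 3 member arms were called in each of the 3 pairs, and 119, 122 and 104 of 180 miRNAs. With pig entries alone, 2 of 3 member arms were called in each of the 3 pairs, and 140, 148 and 134 of 222 miRNAs. Of 38 values of log2 of 5p over 3p reads, 29 stayed within the counting interval. The others were, by the representative read, -10.79 for mir-107 at E90, -6.61 for mir-107 at P7y, 1.58 for mir-33a at E90 and -4.48 for mir-378 at P30d; without mismatched reads, 4.11 and 1.58 for mir-33a at E90 and P7y and -11.40 and -4.02 for mir-378 at E90 and P30d; and with pig entries alone, -4.33 for mir-378 at P30d. Summing miR-103 with miR-107 and arms as typed changed no call of a member that was compared. Depth limits the miR-33 arms at P7y, with 6 and 7 reads, and every 5p arm. No paired analysis was possible because each stage has 1 library, and no library could be left out.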
